A study of Mus musculus with 12 samples.

Results

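The constant regions of the γ and δ chains of the T cell receptor were examined in sorted mouse T cells that had been gated on the β chain of the other receptor. The genes were Tcrg-C1, Tcrg-C2 and Tcrg-C4, which encode the constant parts of the γ chain, Trdc, which encodes that of the δ chain, and Sox13, a transcription factor of the γδ lineage. They were chosen by name, though with earlier results of these data known, and they make up 5 of the 26629 genes with counts in this series. The question was whether cells sorted by TCRβ carry γ and δ transcripts and Sox13.

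The RNA came from C57BL/6 mice with floxed alleles of Lrf, the gene Zbtb7a that encodes the zinc finger transcription factor LRF, and all 12 libraries share the floxed background. Control mice were Cd4 Cre- lrf fl/fl and KO mice were Cd4 Cre+ lrf fl/fl, so that the recombinase of the KO mice is driven by the Cd4 promoter, which is active in developing αβ thymocytes. Precursors of intraepithelial lymphocytes (IELp) were taken from the thymus of control and of KO mice as TCRβ+ cells with high CD5 and PD-1 and with CD122 and H-2Kb that lacked CD4, CD8α and CD44. CD8αα cells were sorted as CD45+ TCRβ+ CD8α+ cells without CD4 or CD8β. The titles name the control CD8αα cells as intraepithelial lymphocytes (IELs), which lie in the lining of the gut, and the KO CD8αα cells as splenocytes. Each of the 4 groups has 3 libraries, here called control IELp, KO IELp, control IEL and KO spleen. The labels give no age, and they do not say whether replicates came from separate animals or whether animals were pooled, so a p-value here reflects the spread between samples of a group, which may be technical. Genotype alone differs by label only between the IELp groups, whereas genotype and tissue differ together between the CD8αα groups and cannot be told apart there.

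A T cell receptor is built either from an α and a β chain or from a γ and a δ chain, and each chain joins a rearranged variable part to a constant part. The mouse γ locus holds several clusters, each with its own constant gene, joining segment and variable segments, whereas the δ locus has 1 constant gene and lies inside the α locus, so that a joining of α segments on a chromosome cuts the δ genes out of it. Rearranged γ genes, many of them out of frame, are also known from αβ T cells. Sox13 is a member of the Sox family of DNA-binding factors that is known for its role in early γδ thymocytes.

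The γ constant genes resemble each other closely, which bears on how reads can be assigned to them. The first 76 bases of exon 1, the length of 1 sequencing read, are shown for the 3 γ genes examined and for the low-level gene Tcrg-C3, from the GENCODE M21 transcripts on build GRCm38 (mm10). Capitals mark the 12 positions at which the 4 genes do not all share a base, and each sequence runs 5′ to 3′ along its gene.
Tcrg-C1 at chr13:19214103-19214178 on the plus strand: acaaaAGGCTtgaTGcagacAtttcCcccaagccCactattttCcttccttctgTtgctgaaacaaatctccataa
Tcrg-C2 at chr13:19307476-19307551 on the minus strand: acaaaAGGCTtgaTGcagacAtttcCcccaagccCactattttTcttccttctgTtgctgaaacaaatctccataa
Tcrg-C3 at chr13:19260885-19260960 on the plus strand: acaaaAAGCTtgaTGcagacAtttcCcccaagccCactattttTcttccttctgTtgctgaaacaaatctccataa
Tcrg-C4 at chr13:19344558-19344633 on the plus strand: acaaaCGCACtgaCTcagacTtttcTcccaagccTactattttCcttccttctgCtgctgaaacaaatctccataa
In this stretch Tcrg-C1 and Tcrg-C2 differ at 1 base, while Tcrg-C4 differs from Tcrg-C1 at 10 and from Tcrg-C2 at 11. Over the 330 bases of exon 1, Tcrg-C1 and Tcrg-C2 were 97.27% identical, and Tcrg-C4 was 82.12% identical to Tcrg-C1 and 81.52% to Tcrg-C2. Of all stretches of 76 bases in the annotated transcript, 17.2% of those of Tcrg-C1 and 8.70% of those of Tcrg-C2 occur unchanged in another constant gene, and 0% of those of Tcrg-C4 and Trdc do. The split of counts between Tcrg-C1 and Tcrg-C2 is therefore less certain than their sum, and each comparison below is also given for the 4 γ constant genes merged.

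The γ genes lie on chromosome 13 of mm10, with Tcrg-C1 from 19214103 to 19217024 and Tcrg-C4 from 19344558 to 19352756 on the plus strand and Tcrg-C2 from 19304649 to 19307551 on the minus strand. Trdc lies on the plus strand of chromosome 14 from 54142851 to 54148868, and Sox13 on the minus strand of chromosome 1 from 133382303 to 133424377. The span of Trdc, introns included, shares 3437 bases with that of the minus-strand gene Gm43434 and 207 with that of the minus-strand segment Trdv5. Gm43434 has 676 bases of exons in all, and the overlap of exons alone was not measured. The strand setting of the counting is not given in the sources used here, and without strand the reads of Trdc and of these partners cannot be told apart where they overlap.

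Between 13432598 and 19947734 reads were counted in genes in each library. Zbtb7a stood at 68.5 to 80.7 CPM (counts scaled to equal totals over all genes in every library) in the control IELp libraries and 42.0 to 50.8 in the KO IELp libraries, and at 101 to 119 in the control IEL and 59.1 to 63.4 in the KO spleen libraries, so each KO group lay below the control group of its stage. The gate was reflected in the RNA: Cd8a stood between 17.5 and 49.4 CPM in the IELp libraries and between 786 and 2675 in the CD8αα libraries, and Cd4 and Cd8b1 reached at most 9.28 and 7.16 CPM in any library. Markers of gut epithelial cells summed to 502, 559 and 644 CPM in control IEL replicates 1, 2 and 3, against at most 69.5 CPM in the other groups. Most of this sum came from Cdh1 at 397 ± 26.5 CPM and Epcam at 146 ± 37.3 CPM (SD, n = 3), and Epcam already stood at 62.0 ± 4.72 in control IELp, while Krt8, Krt18, Krt20, Vil1 and Fabp2 averaged 2.16 to 8.50 CPM. Markers of B cells summed to 84.2 to 102 CPM in KO spleen against 16.8 to 61.3 elsewhere, with Ms4a1, which encodes CD20, at 0 outside KO spleen. The range for markers of myeloid cells was 46.6 to 74.5 CPM in KO spleen and 19.1 to 30.8 elsewhere. NK and innate lymphoid markers, several of which CD8αα T cells express too, summed to 493 to 634 CPM in the CD8αα groups and 83.4 to 106 in IELp. Control IEL replicate 3 stood apart from replicates 1 and 2, for instance in Krt8, a keratin of epithelial cells (22.6 against 1.35 and 1.54 CPM), and in the NK receptor gene Klrk1 (29.4 against 102 and 99.8 CPM). Values without it are given for some of the results that it moves. In bulk RNA, a change in how many cells carry a transcript and a change in the amount per cell cannot be told apart.

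All 12 libraries carried γ constant transcript and Trdc, but in opposite order across the groups. The γ constant genes were highest in control IELs, where Tcrg-C1, Tcrg-C2 and Tcrg-C4 together reached 2390 ± 92.9 CPM (SD, n = 3), against 342 ± 23.9 in control IELp, 342 ± 37.0 in KO IELp and 446 ± 4.46 in KO spleen cells. Trdc was lowest in control IELs, at 8.63 ± 3.25 CPM, and stood at 20.9 ± 5.21 in control IELp, 24.7 ± 2.40 in KO IELp and 15.7 ± 0.611 in KO spleen cells. Sox13 was low and found almost only in IELp, with 153 counts over the 3 control IELp libraries and 160 over the 3 KO IELp libraries, against 2 in control IEL and 0 in KO spleen libraries.

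Tcrg-C2 stood at 181, 197 and 191 CPM in control IELp replicates 1 to 3 and at 169, 176 and 216 CPM in KO IELp. The values were 1408, 1387 and 1467 CPM in control IELs and 286, 287 and 291 CPM in KO spleen cells. The order was therefore control IEL, KO spleen and then the IELp groups, which overlapped. Tcrg-C4 stood at 88.6, 90.7 and 120 CPM in control IELp, 92.2, 96.4 and 102 in KO IELp, 620, 601 and 742 in control IELs and 111, 117 and 109 in KO spleen cells. Its KO spleen libraries lay within the range of control IELp and above that of KO IELp. Tcrg-C1 stood at 50.2, 49.3 and 55.9 CPM in control IELp, 55.6, 52.2 and 66.9 in KO IELp, 327, 331 and 287 in control IELs and 44.1, 46.2 and 46.3 in KO spleen cells. It was the only one of the 3 γ genes whose KO spleen libraries were all below every IELp library.

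**Figure D1:**
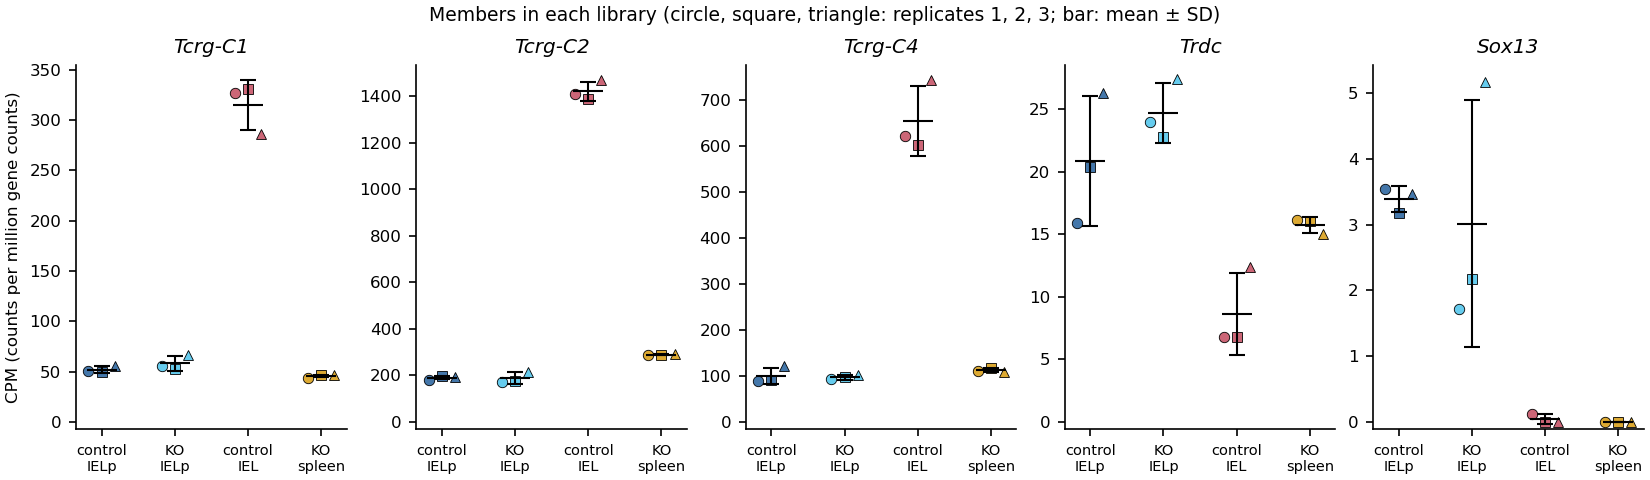
CPM of the 5 genes in each library on a linear axis from 0, with circles, squares and triangles for replicates 1, 2 and 3 and bars for the group mean ± SD (n = 3). The γ constant genes stand highest in control IELs, Trdc stands lowest there, and Sox13 has counts almost only in the IELp libraries.

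Per kilobase of annotated exons, a scale that allows for gene length but not for reads lost between similar genes, Tcrg-C2 led the γ genes in every group. In control IELs its level was 1554.5 ± 45.3 CPM per kb, above Tcrg-C4 at 665 ± 77.5, Tcrg-C1 at 341 ± 26.8 and Tcrg-C3 at 10.1 ± 2.02 (SD, n = 3). Tcrg-C2 took 55.1% of γ constant counts in control IELp, 53.8% in KO IELp, 59.3% in control IEL and 64.0% in KO spleen cells. The share of Tcrg-C1 was 15.0%, 16.8%, 13.2% and 10.1% in the same order, and that of Tcrg-C4 was 28.8%, 28.0%, 27.3% and 25.0%.

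**Figure D2:**
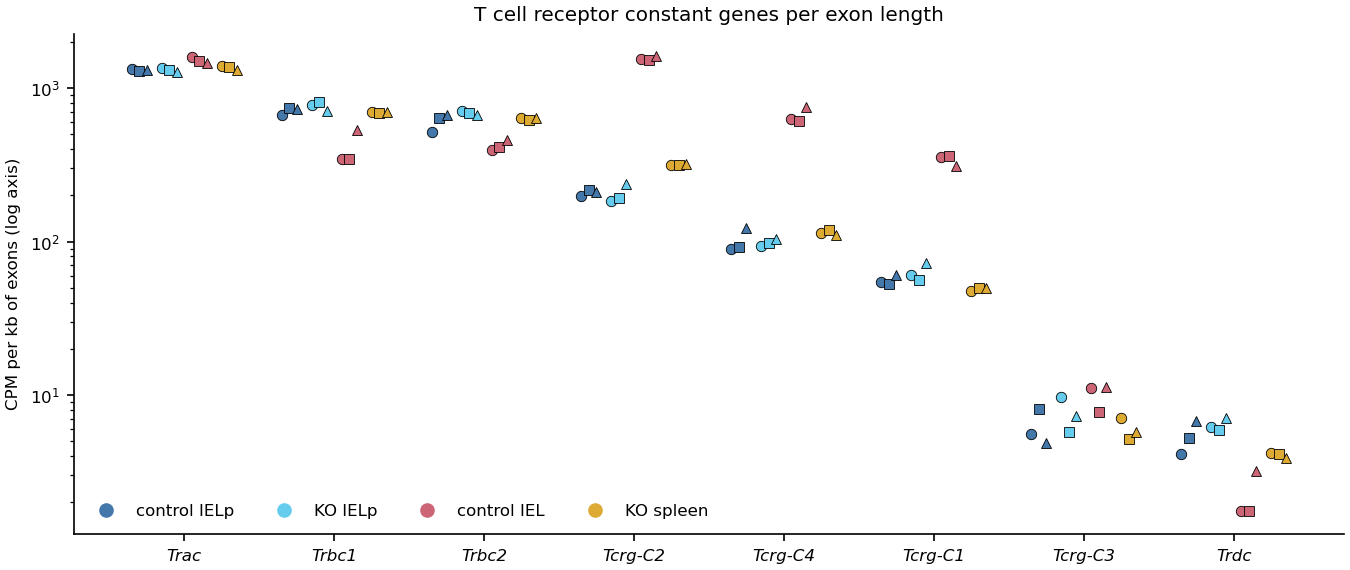
CPM per kb of exons of the receptor constant genes on a log axis, with 1 point for each library, coloured by group. In control IELs Tcrg-C2 stands above both β constant genes and level with Trac, while Trdc stays below 10 CPM per kb in all 12 libraries.

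The sum of the γ constant genes per kb was set against that of the β constant genes Trbc1 and Trbc2, whose protein was used in every sort. The γ sum was 0.282 ± 0.0128 times the β sum in control IELp, 0.258 ± 0.0400 times in KO IELp and 0.365 ± 0.00884 times in KO spleen cells, but 3.14 ± 0.386 times in control IELs (2.70 to 3.42, SD, n = 3). Every control IEL library thus held more γ than β constant transcript by this measure, and every other library held less. Shared stretches of 76 bases were counted for the γ genes and Trdc but not for Trbc1 and Trbc2. Reads that the β genes may have lost to each other were therefore not accounted for in this ratio. The β sum itself was 830 ± 141 CPM per kb in control IELs and between 1320 and 1452 in the means of the other groups, while the γ sum was 2570 ± 97.3 in control IELs and between 372 and 485 in the others. Set against Trac in the same way, Trdc came to 0.414 ± 0.107% in control IELp, 0.490 ± 0.0581% in KO IELp, 0.149 ± 0.0627% in control IEL and 0.301 ± 0.00221% in KO spleen cells. The γ sum was 71.0 ± 13.2 times the δ level in control IELp, 58.4 ± 1.88 times in KO IELp, 1238 ± 348 times in control IEL and 119 ± 4.89 times in KO spleen cells. Reads lost among the γ genes, or shared by Trdc and the genes that overlap it, were not corrected for in any of these ratios. In a 2-sided exact permutation test of log2 ratios, all 3 ratios gave p = 0.1 for control IEL against control IELp, for KO spleen against control IEL and for KO spleen against KO IELp, which is the smallest p that 3 against 3 libraries allow, and the groups did not overlap. Between the IELp groups the libraries overlapped in all 3 ratios, and the exact permutation p was 0.4 for γ over β, 0.4 for Trdc over Trac and 0.3 for γ over δ.

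**Figure D3:**
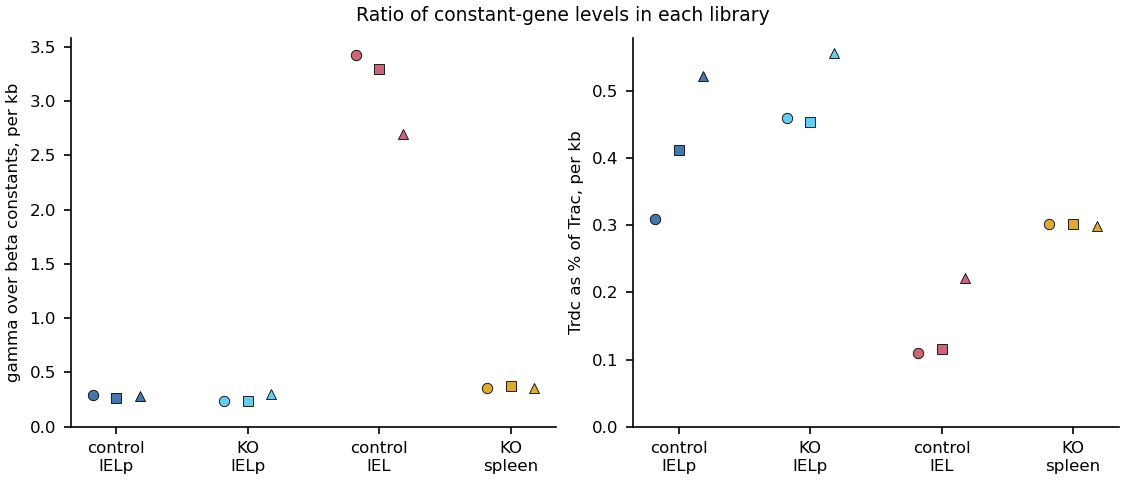
Ratio of the summed γ to the summed β constant genes (left) and Trdc as a percentage of Trac (right), both per kb of exons, with 1 point for each library and axes from 0. The control IEL libraries sit at 2.70 to 3.42 on the left, while the other 9 libraries sit below 0.5, and on the right control IEL replicate 3 lies above replicates 1 and 2.

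KO and control IELp were compared to see whether loss of LRF changed these transcripts in the precursors. None of the 5 genes passed the test with the edgeR quasi-likelihood test and Benjamini-Hochberg adjustment over 14629 genes, and all 5 overlapped between the groups. Of all genes tested, 13.1% passed in either direction (6.48% higher and 6.58% lower in KO IELp) and 29.7% did not overlap. At an unadjusted p under 0.05 the count among the 5 was also 0, and DESeq2 and limma called 0 of them as well. The log2 difference between KO and control was 0.19 (95% interval -0.02 to 0.41, adjusted p = 0.251) for Tcrg-C1, 0.00046 (-0.17 to 0.17, adjusted p = 0.998) for Tcrg-C2 and -0.02 (-0.24 to 0.20, adjusted p = 0.93) for Tcrg-C4. For the merged γ genes it was 0.03 (SE 0.07, 95% interval -0.12 to 0.18, edgeR adjusted p = 0.851). The interval for Trdc ran from -0.06 to 0.60 around 0.27 (edgeR adjusted p = 0.298). Without control IELp replicate 3 the Trdc difference was 0.47 and passed (edgeR adjusted p = 0.0445).

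Control IELs were compared with control IELp, which share their genotype but not their stage or tissue. All 3 γ constant genes rose and Trdc and Sox13 fell, so that 5 of 5 genes passed the edgeR test, where 64.8% of all 14878 tested genes did (31.9% higher and 32.9% lower). None of the 5 overlapped between the groups, as held for 70.9% of all tested genes. The rise of Tcrg-C2 was 8.77-fold (3.13 on the log2 scale, SE 0.06, edgeR adjusted p = 3.37e-11). Tcrg-C4 rose 7.69-fold (2.94, SE 0.13, adjusted p = 8.13e-09) and Tcrg-C1 7.14-fold (2.84, SE 0.09, adjusted p = 6.37e-10). The merged γ genes rose 8.13-fold (3.02, SE 0.07, adjusted p = 7.71e-11), and their log2 change was between 2.79 and 3.07 in all 14 alternative fits, which include leaving out each library. Of these fits 1, on reads recovered from the deposited FPM values, repeats the main fit. Tcrg-C3 passed too, with a log2 fold change of 0.92 (adjusted p = 0.00888), but its groups overlapped at 3.17 to 5.29 and 5.02 to 7.33 CPM. These folds come from the edgeR model, whose scaling raises control IEL values relative to plain CPM.

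The scaling touches all genes. With limma on the deposited FPM values, which use total counts alone, the median gene was shifted by -0.23 (log2) from edgeR in control IEL against control IELp, 0.12 in KO spleen against control IEL and -0.11 in KO spleen against KO IELp. The share of called genes that were higher was then 34%, 59.9% and 36.3%, against 49.2%, 49.9% and 50.3% with edgeR, and for KO against control IELp it was 38.6% against 49.6%. On either scaling the γ genes rose and Trdc fell from control IELp to control IELs.

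**Figure D4:**
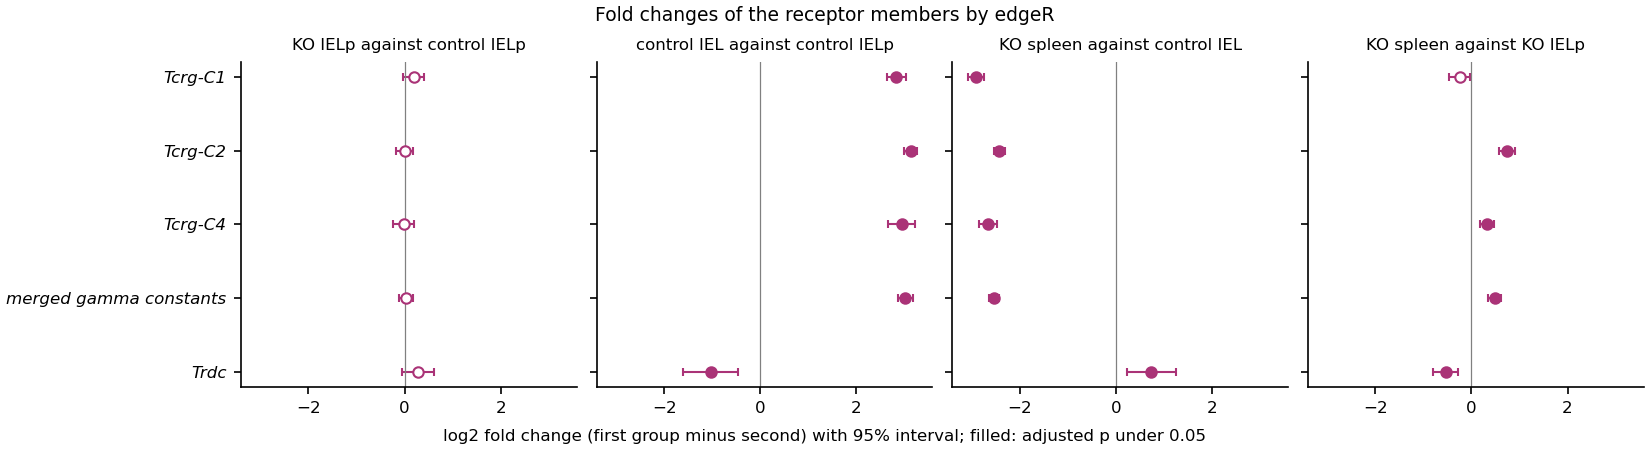
Log2 fold changes from edgeR for the γ constant genes, their merged counts and Trdc in the 4 comparisons, with 95% intervals, filled where the adjusted p was under 0.05. In control IELs the γ genes sit near 3 against control IELp and Trdc near -1, and the intervals for KO against control IELp all include 0. Sox13 is not drawn, since its CD8αα groups hold 0 or 2 counts.

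KO spleen cells were compared with control IELs through the same gate. Of the 4 genes tested, all passed the edgeR test, 3 lower and 1 higher, where 58.2% of all 14875 tested genes passed (29.2% lower and 29.1% higher). The groups did not overlap for these 4 genes, nor for 66.2% of all tested genes. Tcrg-C1 fell by 2.91 on the log2 scale (SE 0.08, adjusted p = 1.54e-09), a level 7.53-fold lower, Tcrg-C4 was 6.31-fold lower (adjusted p = 5.65e-09) and Tcrg-C2 5.36-fold lower (adjusted p = 2.91e-10). The merged γ genes fell by 2.53 (SE 0.05, adjusted p = 2.21e-10). Sox13 was not tested here, with 0 and 2 counts in the groups.

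KO spleen cells were last compared with KO IELp, cells of the KO genotype that differ in stage and tissue. Here the γ genes did not move alike. Of the 5 genes, 2 rose, 2 fell and Tcrg-C1 did not pass, where 45.0% of all 14880 tested genes passed (22.6% higher and 22.4% lower) and 56.4% did not overlap. Tcrg-C2 rose by a factor of 1.66 (0.73 on the log2 scale, SE 0.08, edgeR adjusted p = 4.89e-06) and Tcrg-C4 by 1.26 (0.33, SE 0.07, adjusted p = 0.00113). For Tcrg-C1 the log2 difference was -0.25 (95% interval -0.46 to -0.03, adjusted p = 0.057), although its groups did not overlap. The smaller calls depended on the fit: with limma Tcrg-C4 no longer passed at 0.22 (adjusted p = 0.0531), and Tcrg-C1 passed at -0.34 (adjusted p = 0.0371). Tcrg-C1 also passed in the fit of all 12 libraries, without a filter on low counts and without KO IELp replicate 2. The merged γ genes rose 1.40-fold (0.49, SE 0.06, adjusted p = 3.65e-05).

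The difference between CD8αα cells and IELp was itself compared between control and KO mice with an interaction term in 1 edgeR fit of all 12 libraries, added after the data were seen. In this fit 46.7% of 15757 genes passed, 22.5% with a positive and 24.2% with a negative difference. The change from IELp to CD8αα cells was more positive in control mice by 3.11 on the log2 scale for Tcrg-C1 (SE 0.13, adjusted p = 1.27e-11), 2.42 for Tcrg-C2 (adjusted p = 1.83e-11) and 2.64 for Tcrg-C4 (adjusted p = 5.52e-10). For Trdc the difference was -0.47 (SE 0.30, adjusted p = 0.22) and for Sox13 2.64 (SE 1.85, adjusted p = 0.267), and neither passed. Since the control CD8αα cells are IELs and the KO ones splenocytes, this term holds genotype and tissue together.

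The γ variable segments were read beside the constant gene of their own cluster. By position, Tcrg-V7, Tcrg-V4, Tcrg-V6, Tcrg-V5 and the joining segment Trgj1 precede Tcrg-C1, Trgv2 and Trgj2 lie by Tcrg-C2, and Gm16602, which RefSeq lists as Tcrg-V1, and Trgj4 lie by Tcrg-C4. Trgv2, Gm16602 and the joining segments were added under these symbols after the data were seen. Trgv2 stood at 38.3, 49.2 and 56.6 CPM in control IELp, 49.1, 43.9 and 51.8 in KO IELp, 318, 323 and 307 in control IEL and 78.6, 73.8 and 82.6 in KO spleen libraries. It had the same order of groups as Tcrg-C2, with control IELs highest, KO spleen cells next and the IELp groups overlapping. Gm16602 stood at 76.0, 76.5 and 91.8 CPM in control IELs and between 23.7 and 32.3 in the other 9 libraries. Tcrg-V4 reached 105, 108 and 103 CPM in control IELs and 9.08 to 20.8 elsewhere. Tcrg-V7, a segment known from γδ cells of the gut lining, stood at 30.4, 28.3 and 15.3 CPM in control IELs, 2.24 to 3.32 in the IELp groups and 0.477 to 1.04 in KO spleen libraries.

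In control IELs against control IELp, Trgv2 rose by 2.95 on the log2 scale (edgeR adjusted p = 5.97e-09), Tcrg-V4 by 3.23 (adjusted p = 1.98e-07), Tcrg-V7 by 3.38 (adjusted p = 1.27e-06) and Gm16602 by 1.80 (adjusted p = 3.18e-07). Tcrg-V5 rose too, to 2.64 to 2.95 CPM from at most 0.221 CPM, whereas Tcrg-V3 at 1.61 to 2.03 CPM did not pass (adjusted p = 0.396) and Tcrg-V6 was too low to test. The joining segments Trgj1, Trgj2 and Trgj4 rose by 4.00, 4.00 and 3.02 on the log2 scale. Each holds only about 60 bases, and their counts were 107 to 217 per control IEL library. In KO spleen against KO IELp, Trgv2 rose by 0.81 (edgeR adjusted p = 4.52e-06) and Gm16602 by 0.35 (adjusted p = 0.0326), Tcrg-V7 fell by 1.86 (adjusted p = 0.00174), and Tcrg-V4 differed by 0.10 (SE 0.18, adjusted p = 0.695). None of the γ segments tested passed between KO and control IELp. Per kb, Trgv2 in control IELs was at 643 ± 16.2 CPM, below Tcrg-C2, and Gm16602 at 218 ± 23.9, below Tcrg-C4 (SD, n = 3).

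**Figure D5:**
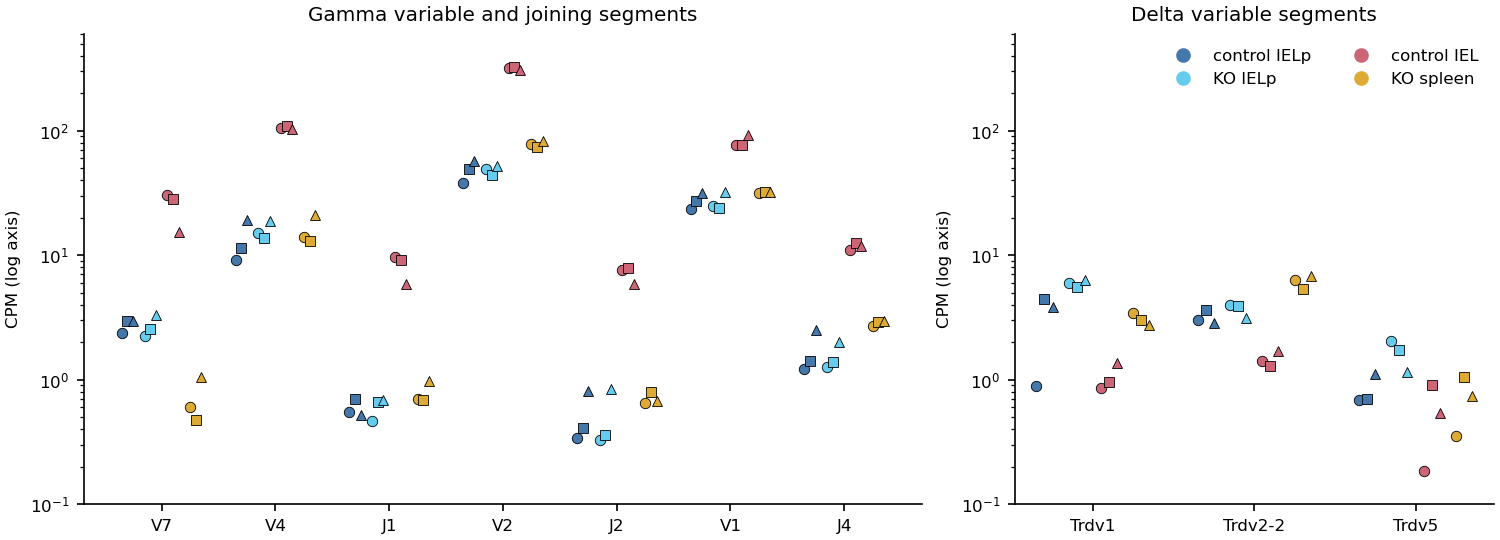
CPM of γ variable and joining segments (left, ordered by cluster, V1 being Gm16602, V2 Trgv2 and J1, J2 and J4 the Trgj segments) and of 3 δ variable segments (right) on a log axis, with 1 point for each library. Control IELs stand above all other libraries for each γ segment shown, while for Trdv2-2 they stand below all others.

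Trdc counts ranged from 105 to 520 per library. The CPM were 15.9, 20.4 and 26.3 in control IELp, 24.0, 22.8 and 27.4 in KO IELp, 6.76, 6.76 and 12.4 in control IELs and 16.1, 16.0 and 15.0 in KO spleen cells. Control IEL replicate 3 was the highest of its group and still below every other library. Against control IELp, Trdc in control IELs was 2.05-fold lower (log2 fold change -1.03, SE 0.26, edgeR adjusted p = 0.00458). Without control IEL replicate 3 the log2 fold change was -1.39 (adjusted p = 6.75e-05). It was 1.67-fold higher in KO spleen cells than in control IELs (0.74, SE 0.23, adjusted p = 0.018), and this call was lost without control IEL replicate 1 (0.59, adjusted p = 0.075), control IEL replicate 2 (0.59, adjusted p = 0.0697) or KO spleen replicate 1 (0.72, adjusted p = 0.0509), while the value was 1.11 without control IEL replicate 3. Against KO IELp, Trdc was 1.45-fold lower in KO spleen cells (-0.54, SE 0.12, adjusted p = 0.00229). Gm43434, which overlaps Trdc on the other strand, moved with it: it fell by 1.15 in control IELs against control IELp (adjusted p = 0.00185) and rose by 0.96 in KO spleen against control IEL (adjusted p = 0.00828), and its part in the Trdc values was not tested.

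The δ joining segments, which are part of a rearranged δ transcript, held 0 to 4 counts per library over all of them. Trdj1 and Trdj2 span 51 and 59 bases and Trdc itself was low, so a rearranged δ transcript may not be detectable through them at this depth. The δ variable segments summed to 7.32 ± 2.28 CPM in control IELp, 11.5 ± 0.562 in KO IELp, 3.35 ± 0.836 in control IEL and 10.1 ± 0.434 in KO spleen cells (SD, n = 3). Trdv2-2 fell in control IELs against control IELp (log2 fold change -0.88, edgeR adjusted p = 0.02) and was higher in KO spleen cells than in KO IELp (0.86, adjusted p = 0.00446). Trdv1 fell in KO spleen against KO IELp (-0.84, adjusted p = 0.00508), and it was at 0.887 CPM in control IELp replicate 1 against 4.41 and 3.83 in the other 2. The variable segments that both α and δ chains can use summed to 25.0 ± 2.90, 23.2 ± 2.51, 9.76 ± 6.28 and 22.5 ± 1.26 CPM in control IELp, KO IELp, control IEL and KO spleen cells, and reads of these cannot be assigned to one chain. The 25 γ and δ segments listed by symbol include 10 of these shared segments and lack Trgv2, Gm16602 and the γ joining segments, so their count mixes chains. In control IELs against control IELp 3 rose and 4 fell of 14 tested, where 64.8% of all tested genes passed, and without control IEL replicate 3, 3 rose and 8 fell. In KO spleen against control IEL 5 rose and 3 fell of 16 tested, where 58.2% of all passed, or 8 and 3 without that library.

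Sox13 was found at 3.55, 3.18 and 3.46 CPM in control IELp and 1.72, 2.17 and 5.17 CPM in KO IELp, so that KO IELp replicate 3 was the highest of all 12 libraries. The difference between the IELp groups was -0.13 on the log2 scale with an interval from -0.87 to 0.62 (edgeR adjusted p = 0.869), and leaving out KO IELp replicate 1 turned it to 0.15 and leaving out replicate 3 gave -0.78, with no call in either case. Control IEL replicate 1 held 2 counts and replicates 2 and 3 held 0. Over the group, in pooled counts over plain totals, Sox13 in control IELs was 84.9-fold below control IELp, with a 95% counting interval from 23.1 to 708. With the scaling of edgeR the fold was 61.5 (edgeR adjusted p = 1.4e-05). In pooled counts without control IEL replicate 1 the group had 0 counts and lay at least 38.3-fold lower, and without replicate 3 the ratio was 53.8. In KO spleen cells, with 0 counts, Sox13 was at least 55.0-fold lower than in KO IELp in pooled counts, with a floor of 3 counts for the whole group. The edgeR test of this pair, with its own scaling, gave an adjusted p of 5.29e-05. KO IELp replicate 3 held 98 of the 160 KO IELp counts, and without it the bound was 34.0-fold. Leaving out the other libraries in turn gave bounds of 34.0 to 65.6, the lower ones when a KO spleen library was left out and the same floor met fewer reads. Such intervals and floors hold counting error alone, and the reads had no molecular identifiers. Of the 5 listed Sox genes 4 were tested, Sox13 among them, and these 4 fell in control IELs against control IELp, where 32.9% of all tested genes fell, and in KO spleen against KO IELp, where 22.4% did. Sox6 was too low to test, at 0 to 0.221 CPM in control IELp and 0.369 to 0.836 CPM in control IELs. Sox4, which is also known from γδ thymocytes, stood at 459 to 582 CPM in IELp, 1.60 to 2.01 in control IEL and 70.9 to 83.7 in KO spleen libraries, and Sox5, the closest relative of Sox13 on the list together with Sox6, at 58.3 to 72.8, 0.184 to 0.489 and 9.38 to 11.1 CPM.

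Markers of γδ T cells other than the receptor were read in the same groups. Sox13, Blk, Cd163l1 and 5830411N06Rik were each below 8 CPM in every library. In control IELs, where γ constant transcript was highest, 5830411N06Rik was at 0 in all 3 libraries, Blk, a kinase known from γδ cells that make IL-17, was at 0.0614, 0 and 0 CPM, and Sox13 had 2 counts. Cd163l1 was not at 0 in that group. In KO spleen cells Blk reached 3.28 to 7.57 CPM beside the B cell markers named above, B cells being known to express this kinase as well, and Sox13 was at 0. Cd163l1 and 5830411N06Rik were not at 0 in KO spleen cells. The summed CPM of all 8 γδ markers was 347 to 405 in control IELp, 346 to 422 in KO IELp, 2326 to 2508 in control IEL and 466 to 478 in KO spleen libraries, nearly all of it from the γ constant genes. By count, 3 of the 8 markers rose and 4 fell in control IELs against control IELp, where 31.9% and 32.9% of all genes did. The 3 that rose were the γ constant genes. In KO spleen against control IEL 3 rose and 3 fell of 6 tested, where 29.1% and 29.2% did. Against KO IELp 3 rose and 2 fell of 8, where 22.6% and 22.4% did. Between KO and control IELp 2 of 8 fell, where 6.58% did, and 1 without KO IELp replicate 3. The part of γδ cells in these levels was not tested.

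Most genes listed as acting early in γδ cells fell with Sox13 in control IELs, where the γ constant genes rose. Of 11 listed, 9 of 10 tested fell and 0 rose in control IELs against control IELp, where 32.9% of all tested genes fell, with a median log2 fold change of -5.52 against -0.01 over all genes. Lef1, a partner of β-catenin, fell by 5.55 (edgeR adjusted p = 1.53e-11), its relative Tcf7 by 2.96 (adjusted p = 4.34e-11) and Id3, an inhibitor of E proteins, by 5.49 (adjusted p = 1.75e-10). Tcf7 still stood at 180 ± 6.99 CPM in control IELs, from 1645 ± 53.4 in control IELp. Other thymocyte genes fell in this comparison too. Of the markers of CD4 and CD8 double-positive thymocytes 6 of 6 fell, with a median log2 fold change of -6.99. Of the recombination genes 3 of 3 tested fell, with a median of -7.18. Whether any of these falls is particular to γδ cells was not tested. In KO spleen against control IEL 10 rose, where 29.1% of all tested genes did, and 1, Zbtb16, fell. In KO spleen against KO IELp 3 rose and 7 fell of 11, where 22.6% and 22.4% of all did, Blk and Maf being among those that rose. Between KO and control IELp 5 of 11 fell, where 6.58% of all tested genes did, and 0 rose, Id3 from 737 ± 19.7 to 534 ± 20.6 CPM (adjusted p = 1.09e-05) and Lef1 from 668 ± 10.4 to 537 ± 9.17 CPM (adjusted p = 2.83e-04) among them, but 2 of 11 fell without KO IELp replicate 3.

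Genes of the 2 effector programmes of γδ cells differed between the CD8αα groups. Of the IL-17 cytokine genes themselves, Il17a had 0 counts in all 12 libraries, and Il17f had 1 count in KO IELp and 0 in the other groups. Of the 9 IL-17 programme genes, 6 rose and 0 fell of 6 tested in KO spleen against control IEL, where 29.1% of all tested genes rose, with a median log2 fold change of 4.11. Without control IEL replicate 3, 6 of 7 tested rose and the median was 7.52. Against KO IELp 5 rose of 7 tested, where 22.6% of all rose, with a median of 2.36. In the same comparisons 3 of 4 tested B cell markers and 5 of 6 myeloid markers rose against control IEL, and 4 of 4 and 6 of 6 rose against KO IELp. Without control IEL replicate 3, 4 of 4 tested B cell markers rose against control IEL. The part of the B cell and myeloid markers in the IL-17 programme values was not tested. The genes that rose included Tmem176b, at 9.96 ± 1.63 CPM in KO spleen against 0.591 ± 0.406 in control IEL cells (adjusted p = 2.45e-05), and the chemokine receptor gene Ccr6, at 2.60 ± 0.315 against 0.0362 ± 0.0627 CPM, so the levels were low throughout. In control IELs against control IELp 3 of 4 tested fell, where 32.9% of all did. Of the 5 interferon programme genes, 2 rose and 2 fell in control IELs against control IELp, where 64.8% of all tested genes passed, so the share is near that of all genes. The gene of T-bet, Tbx21, went from 19.98 ± 1.86 to 286 ± 5.95 CPM and Ifng from 0.233 ± 0.144 to 12.3 ± 0.605 CPM, while Eomes and Cd27 fell. In KO spleen cells 4 of 5 rose against KO IELp, where 22.6% of all did, with a median of 4.65, and Eomes, a relative of T-bet, reached 92.2 ± 2.14 CPM. Against control IEL 4 of the 5 rose and 1 fell, where 29.1% and 29.2% of all did, with a median of 1.16.

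The genes known to open or read the γ locus were next. The locus is known to be opened through the IL-7 receptor and STAT5. Il7r, which encodes the α chain of that receptor, stood at 58.1 to 70.3 CPM in control IELp and 52.5 to 65.2 in KO IELp. It stood at 4.73 to 8.82 CPM in control IEL and 69.4 to 79.8 in KO spleen libraries. STAT5 activity was not measured, and the part of these genes in the γ levels was not tested. Of the 10 listed regulators, 2 rose and 6 fell in control IELs against control IELp, where 31.9% of all tested genes rose and 32.9% fell, with a median log2 fold change of -0.31. Without control IEL replicate 3, 2 rose and 5 fell and the median was -0.20. The 2 that rose were Jak3, a kinase of the common γ chain, from 219 ± 12.4 to 686 ± 42.7 CPM (log2 fold change 1.88, adjusted p = 3.18e-09), and the Runt factor gene Runx3, from 122 ± 2.55 to 308 ± 28.7 CPM (1.56, adjusted p = 2.96e-08). Myb fell by 7.15 (adjusted p = 2.48e-09) and Il7r by 2.99 (adjusted p = 1.85e-07). In KO spleen against control IEL 6 rose and 2 fell, where 29.1% and 29.2% of all did, and in KO spleen against KO IELp 6 rose and 3 fell of 10, where 22.6% and 22.4% of all did. Between KO and control IELp 3 rose (Jak1, Stat5a and Runx3) and Jak3 fell, where 6.48% and 6.58% of all did, each by less than 0.35 on the log2 scale.

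The αβ receptor and the CD3 chains, which both kinds of receptor use, give the setting for these levels. Trac rose by 0.44 on the log2 scale in control IELs against control IELp (edgeR adjusted p = 4.03e-05), while Trbc1 fell by 0.58 (adjusted p = 0.00467) and Trbc2 by 0.29 (adjusted p = 0.023). Trbc1 was at 258, 258 and 397 CPM in control IEL replicates 1 to 3, so replicate 3 lay nearer to the other groups. Of Trac, Trbc1 and Trbc2, 2 rose and 1 fell in KO spleen against control IEL, where 29.1% and 29.2% of all genes did. Against KO IELp 1 of the 3 rose, where 22.6% of all did, and between KO and control IELp 0 passed. The CD3 genes split, with Cd3g rising from 920 ± 60.6 to 2290 ± 93.6 CPM (adjusted p = 6.05e-09) and Cd3e from 1008 ± 78.1 to 2191 ± 126 CPM (adjusted p = 3.67e-08), and with Cd247, which encodes the ζ chain, falling from 309 ± 4.64 to 123 ± 6.99 CPM (adjusted p = 1.23e-07) and Cd3d falling as well. The recombination genes Rag1 and Rag2 and the pre-TCR gene Ptcra were at 0 in both CD8αα groups and at most 1.23 CPM on average in IELp. Dntt, which adds bases at the joints, was at 12.2 ± 3.37 CPM in control IELp and 0 in control IELs. Between KO and control IELp 2 of the 4 CD3 genes fell, where 6.58% of all did, and 1 without KO IELp replicate 3. In KO spleen against control IEL 2 CD3 genes rose and 2 fell, where 29.1% and 29.2% of all did. Against KO IELp 1 CD3 gene fell and 2 of 2 tested recombination genes fell, where 22.4% of all did.

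Genes with the most similar pattern were sought over the 12 libraries by Pearson's r of log2 CPM among 9748 genes, as a description in which the points share the 4 groups. The genes most like Tcrg-C1 were Glp1r (r = 0.998), Itgae (0.997), which encodes the αE integrin chain, and Rasgrf1 (0.995). Those most like Tcrg-C2 were Rassf1 (0.997) and Mbd2 (0.996), and for Tcrg-C4 they were Fasl (0.996), a death ligand, and Nucb1 (0.995), with Cd3e at 0.994. All of these were highest in control IELs. For Trdc they were the glycolytic genes Eno1b (0.972) and Eno1 (0.964), which are near copies of each other, and for Sox13 Nek2 (0.981), a kinase of dividing cells, and Kansl1l (0.981), with Dntt at 0.978.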

How the data were processed

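RNA from 40000 sorted cells per sample was made into libraries from low-input cDNA and read as 76 bp pairs, per the labels' protocols. The submitters' processing notes name bcl2fastq, Trimmomatic, STAR, HTSeq, DESeq2 and mm10. The annotation, settings and strand were not stated in the labels or files. The authors deposited a table of raw counts for 48663 gene symbols with 5 summary rows, which were kept out of all totals. Reads in no gene were 41.5% to 45.5% of all reads in those rows and genes together, reads without a unique place 13.1% to 18.8% and ambiguous reads 0.669% to 0.751%, so reads shared by γ genes can be missing. The deposited FPM table of 26629 genes holds CPM: 100% of its values came back as whole reads within 0.001, and edgeR on those reads gave the same counts of calls (948 higher and 963 lower in KO against control IELp). Of the symbols 27 read as dates and were not named.

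Each pair of groups was fitted on the deposited counts of its 6 libraries with edgeR 4.0.16 in R 4.3.3 (filterByExpr, TMM, quasi-likelihood test, 2-sided), and p-values were adjusted by Benjamini-Hochberg over all genes tested, at 0.05. The SE of a log2 fold change was its size divided by the root of its F statistic. CPM in the text carry no TMM factors. Exon lengths, positions and sequences came from GENCODE M21 (GRCm38). Log2 FPM values were also fitted with limma 3.58.1 after adding 1 or 0.1. The comparisons share groups with each other and are not independent. The genes and lists were chosen with earlier results of these data known. For most lists, the text gives counts, though not in every comparison, and values for members with the smallest adjusted p. It also gives the segments with at least 10 counts in a library. For pattern, it gives the genes of highest r with at least 5 CPM on average. Some genes were picked with values in view. Alternatives were median-of-ratios factors, DESeq2 1.42.0, no filter, a replicate block, 1 fit of all libraries, limma, the reads recovered from FPM, and leaving out each library. The edgeR fit was tried on simulated counts in which few genes changed, balanced up and down. That trial could not show how the scaling behaves where many genes change. No library was left out, and pairs of replicates differed beyond sampling noise in every group.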

Additional observations from a re-analysis of the deposited data

Results flagged for a closer look

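The change of the γ constant genes from IELp to CD8αα cells differed between control and KO mice by an interaction term in edgeR, fitted to all 12 libraries. The difference, control minus KO on the log2 scale, was 3.11 for Tcrg-C1, 2.42 for Tcrg-C2, 2.64 for Tcrg-C4 and 2.56 for the merged γ constant genes (edgeR adjusted p = 4.19e-12 for the merged genes, SE 0.10). In control mice all 3 libraries of CD8αα cells lay above all 3 of IELp for each of these genes. In KO mice the same held for Tcrg-C2 and Tcrg-C4 at a smaller size, and Tcrg-C1 lay below. The control CD8αα cells are labelled IELs and the KO ones splenocytes, so genotype and tissue cannot be told apart in this difference.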

How the results depend on the processing

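Of 322 refits of the 5 genes and the merged γ genes over the 4 comparisons, 299 kept the direction and the side of the threshold, 12 changed sign, 5 lost a call and 6 gained one. Among the 299 are 23 refits, 1 per result, on the reads recovered from FPM. Those reads equal the deposited counts, so these refits could not differ. All 12 changes of sign were between KO and control IELp, where none of these genes was called. There Tcrg-C2 was -0.00769 with the replicate block, -0.01022 in 1 fit of all 12 libraries, -0.0302 with limma after adding 1 and -0.03038 after adding 0.1. Leaving out 1 library gave -0.1149 to 0.06621 for Tcrg-C2, -0.06173 to 0.08007 for the merged γ genes, -0.09649 to 0.1328 for Tcrg-C4, -0.7753 to 0.1453 for Sox13 and 0.1137 to 0.4655 for Trdc. With edgeR 948 of all genes tested rose and 963 fell in KO IELp. The higher count was 418 with limma after adding 1, 327 after adding 0.1, and 591 to 871 without 1 library (591 when KO IELp replicate 2 was left out, 615 when replicate 3 was). The lower count was 522 with limma after adding 0.1 and 635 to 939 without 1 library (635 when control IELp replicate 2 was left out). For Trdc in KO spleen against control IEL, leaving out 1 library gave 0.5851 to 1.109. In KO spleen against KO IELp, Tcrg-C1 was -0.2617 without a filter (adjusted p = 0.0271), -0.2462 in 1 fit of all libraries, -0.3414 and -0.3473 with limma, and -0.3211 to -0.1354 without 1 library, and Tcrg-C4 was 0.2167 and 0.2185 with limma. The cause of these changes was not tested. Deviations of samples with the same replicate number were only weakly correlated (from -0.0264 to 0.0647), and the number was not taken as a pairing. Within the control and within the KO comparison of CD8αα cells with IELp the correlations were all positive, from 0.0221 to 0.0647. There each library correlated best with its own number, and what lies behind this was not tested. With the replicate number as a block 760 genes were higher and 781 lower in KO IELp, and it changed no call of the 5 genes. Trdc and Sox13 rest on at most 520 and 98 counts per library, which limits their precision.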
